A study of Mus musculus with 16 samples.

Results

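Tumours of mice on alternate-day fasting alone (ADF) were compared directly with tumours of mice given enzalutamide alone (ENZ), so that each single treatment was set against the other rather than against untreated tumours. The groups were taken from the treatment labels, and 8 of the series' 16 RNA-seq libraries belong to this comparison, 4 per group. Of the 55414 mouse gene IDs in the count table, 18946 had enough counts to be tested. The tumours grew from B6MyC-CaP, a single mouse prostate cancer cell line that came from a Hi-MYC transgenic animal on a C57BL/6 background, and the cells were placed under the skin of male C57BL/6 mice aged 6 weeks. ENZ mice received enzalutamide at 20 mg/kg through a gavage tube every day and ate chow freely. ADF mice alternated 24 h without food and 24 h of free feeding and received no enzalutamide. The other 8 libraries, 4 from vehicle-treated, freely fed mice (Vehicle) and 4 from mice given both treatments (ADF+ENZ), entered the fit that estimates the spread and are cited below only as reference levels. The sources used here give neither the length of treatment nor the phase of the fasting cycle in which ADF tumours were removed. The labels do not say that every library is a separate animal, so p-values measure only the spread between these libraries. The text counts replicates in the order of the sample list, and a replicate number pairs no libraries.

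Enzalutamide binds the androgen receptor, a nuclear receptor that androgens switch on, and keeps it from entering the nucleus and activating its target genes. The glucocorticoid receptor binds very similar DNA elements, and several genes, Zbtb16 and Fkbp5 among them, respond to both receptors. Fasting lowers insulin and IGF signalling, which frees FOXO factors to activate their targets, raises fatty acids, ketone bodies and circulating glucocorticoids, and reduces the glucose supply. Proliferating tumours depend on glycolysis, ribosome production and DNA replication, which insulin and mTOR signalling support.

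Before any gene was compared, the make-up of the libraries was examined, because it separated the groups. Reads in no annotated feature made up 32.9 ± 2.73% (SD, n = 4) of the ADF libraries, ranging over 30.3 to 36.7%, and 25.9 ± 1.45% (SD, n = 4) of the ENZ libraries, ranging over 24.5 to 27.9%. Reads aligned to several places made up 4.70 ± 0.414% in ADF and 7.89 ± 0.0666% in ENZ (SD, n = 4 each). In both measures every ADF library lay on one side of every ENZ library. Of 11 library measures, 7 differed in this way, each with an exact two-sided permutation p of 0.0286, the smallest that 70 assignments allow, and an adjusted p of 0.0449. Among them, counts in small RNA classes took 0.0726 ± 0.00368% of gene counts in ADF and 0.135 ± 0.0277% in ENZ, and mitochondrial genes took 1.29 ± 0.0833% and 1.64 ± 0.128%. The counts assigned to genes overlapped, at 12289755 to 16140246 per ADF library and 10630096 to 23558532 per ENZ library. Since these shares do not overlap between ADF and ENZ, the composition of the libraries and the treatment cannot be told apart for any gene below. The ADF libraries also stood apart from Vehicle (reads in no feature 23.4 to 27.9%, aligned to several places 7.16 to 7.84%) and from ADF+ENZ (21.2 to 26.1% and 6.51 to 7.90%), so the ADF differences from Vehicle given below carry the same gap.

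**Figure D1:**
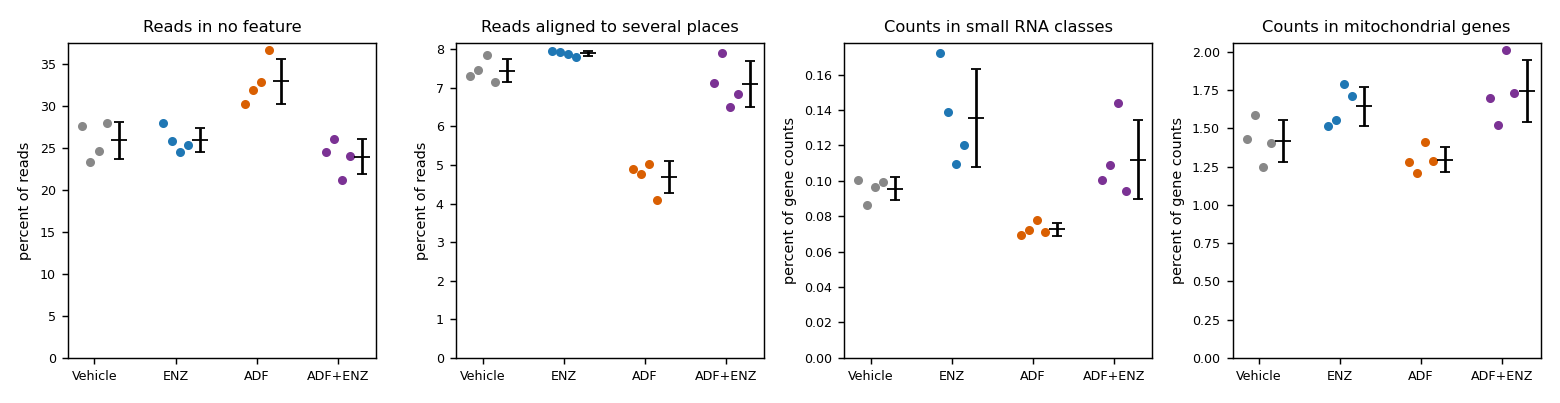
Make-up of each library in the 4 groups: points are single libraries, bars the mean ± SD of 4, and each y axis starts at 0. The ADF libraries stand above the ENZ libraries in reads in no feature (30.3 to 36.7% against 24.5 to 27.9%) and below them in the other 3 measures.

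In all, 1535 of the 18946 genes differed between ADF and ENZ (8.1%; edgeR quasi-likelihood test, Benjamini-Hochberg adjusted p under 0.05, which is what "passed the test" means below). Of these, 744 were higher in ADF (3.93% of the genes tested) and 791 were lower (4.18%), and the median log2 difference over all tested genes was 0.01. A change of over 2-fold was seen in 283 of the genes that passed, 210 higher and 73 lower in ADF. Levels are given as TMM-scaled CPM (read counts scaled to a common library size), and a difference is the log2 of ADF over ENZ, so that a negative value means a lower level in the fasted, drug-free tumours. The figure after ± beside a difference is its standard error (SE). The CPM ranges of the 4 ADF and the 4 ENZ libraries did not overlap in 2914 genes (15.4%), 1277 of them among the genes that passed. The number that passed depended on single libraries: leaving out ENZ replicate 1 raised it to 2388, while it was 370, 613 and 924 when ENZ replicates 3, 4 and 2 were left out in turn, and 384 and 707 when ADF replicates 4 and 3 were. After each library's trends on GC content and transcript length were removed, 1160 genes passed, 374 higher and 786 lower, which moved the share of higher calls from 48.5% to 32.2%. When a library measure was added to the model as a covariate, 7 genes passed with the no-feature share (edgeR; 1417 at an unadjusted p under 0.05) and 0 with the share aligned to several places (892 unadjusted).

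**Figure D2:**
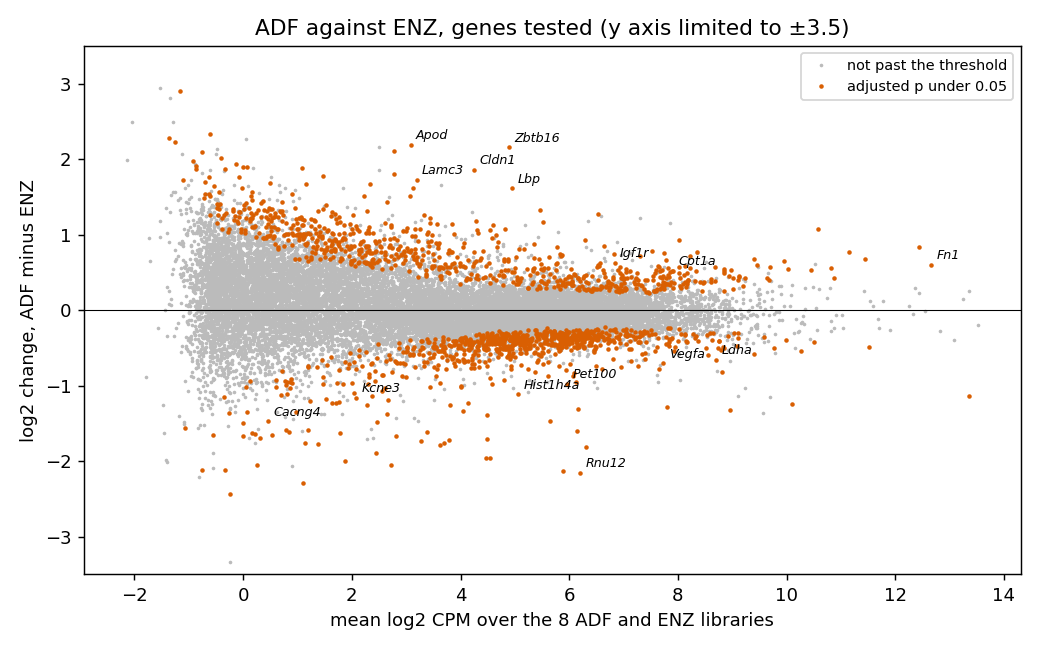
Each point is a tested gene: x axis, mean log2 CPM over the 8 ADF and ENZ libraries, and y axis, the log2 difference ADF minus ENZ (3 genes lie outside the ±3.5 shown). Orange points passed the test, 744 above 0 and 791 below, and the labelled names are genes described in the text.

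Genes that steroid receptors activate were compared first, since one group carried an androgen receptor blocker. Nr3c1, which encodes the glucocorticoid receptor, differed by -0.09 ± 0.10 (edgeR adjusted p = 0.564). Zbtb16, a zinc-finger transcription factor induced by androgens and glucocorticoids, reached 111, 32.3, 58.2 and 68.7 CPM in ADF and 21.2, 10.9, 9.07 and 19.4 CPM in ENZ. Every ADF library was above every ENZ library, although the ADF libraries spread over more than 3-fold. The difference was 2.16 ± 0.39 with an edgeR adjusted p of 0.00827, and it passed in all 8 fits that left out 1 ADF or ENZ library. Against Vehicle, which both comparisons share, Zbtb16 differed by -0.48 (edgeR adjusted p = 0.434) in ADF and by -2.63 (edgeR adjusted p = 0.00223) in ENZ. Fkbp5, a co-chaperone that restrains both receptors, had 343, 188, 208 and 228 CPM in ADF and 203, 155, 143 and 180.4 CPM in ENZ. It did not pass, with a difference of 0.51 ± 0.20 and an edgeR adjusted p of 0.120, and its ranges overlapped.

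Of 28 tested genes known as glucocorticoid-induced, 4 were higher in ADF (against 3.93% of all tested genes) and 0 lower, with a list median of 0.25 on the log2 scale. Zbtb16 was one of them. Glul, glutamine synthetase, was at 194, 170.4, 159 and 148 CPM in ADF and 131, 117, 106 and 115 CPM in ENZ. Its groups did not overlap, and the difference of 0.52 ± 0.10 passed with an edgeR adjusted p of 0.00686. Anxa1, an anti-inflammatory phospholipid-binding protein, was higher by 0.55 ± 0.14 (edgeR adjusted p = 0.0276), with ADF replicate 2 inside the ENZ range. Serpina3n, a secreted protease inhibitor, was higher by 1.19 ± 0.33 (edgeR adjusted p = 0.0435). Its mean was 30.9 ± 8.56 CPM in ADF and 13.9 ± 7.05 CPM in ENZ, both below the 73.3 ± 13.0 CPM of Vehicle (SD, n = 4 each). Removal of 1 library ended the call of Anxa1 in 5 of the 8 fits (adjusted p = 0.0541 to 0.0959) and of Serpina3n in 6 of the 8 fits (adjusted p = 0.0583 to 0.135). The list had 2 to 5 higher calls in those fits, the lowest without ADF replicate 3, ADF replicate 4, ENZ replicate 2 or ENZ replicate 4. The androgen response list had 5 of 89 tested members higher in ADF and 5 lower, shares near the 3.93% and 4.18% of all tested genes, and its median was -0.01. On the higher side stood Mertk, a receptor tyrosine kinase that clears dying cells (0.55 ± 0.12, edgeR adjusted p = 0.0137), and Arid5b, a chromatin-binding protein (0.50 ± 0.12, edgeR adjusted p = 0.0214), besides Cdc14b, Pdlim5 and Ptpn21. On the lower side stood Pmepa1, a membrane protein that dampens TGF-beta and androgen receptor signalling, with 582, 543, 537 and 565 CPM in ADF and 706, 864, 844 and 906 CPM in ENZ. All 4 ADF libraries lay below the lowest ENZ library, and the difference was -0.58 ± 0.15 (edgeR adjusted p = 0.0261). The other lower members were Cenpn, Spcs3, Ell2 and Myl12a. With GC and length trends removed 1 member was higher (Mertk) and 5 were lower. The list's calls changed with single libraries: 0 were higher and 0 lower without ENZ replicate 3, 1 and 0 without ADF replicate 4, 2 and 0 without ENZ replicate 4, 1 and 1 without ADF replicate 3, 2 and 2 without ENZ replicate 2, 2 and 3 without ADF replicate 1, and 7 and 10 without ENZ replicate 1. Ncoa1, a receptor coactivator, was higher by 0.42 ± 0.09 (edgeR adjusted p = 0.0124), while the receptor-folding co-chaperones Fkbp4 and Ptges3 were lower, at -0.38 ± 0.11 and -0.28 ± 0.09 (edgeR adjusted p = 0.0469 and 0.0489). The Ncoa1 and Mertk calls were lost without ENZ replicate 3 (adjusted p = 0.0607 and 0.0634). Dropping 1 library ended the call of Arid5b in 4 of the 8 fits (adjusted p = 0.0613 to 0.0919), of Pmepa1 in 5 of the 8 fits (adjusted p = 0.0566 to 0.0802), of Fkbp4 in 5 of the 8 fits (adjusted p = 0.0545 to 0.174) and of Ptges3 in 7 of the 8 fits (adjusted p = 0.0520 to 0.176). The calls of Anxa1, Arid5b, Ncoa1 and Fkbp4 were also lost with GC and length trends removed (adjusted p = 0.0970, 0.0768, 0.103 and 0.0564).

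**Figure D3:**
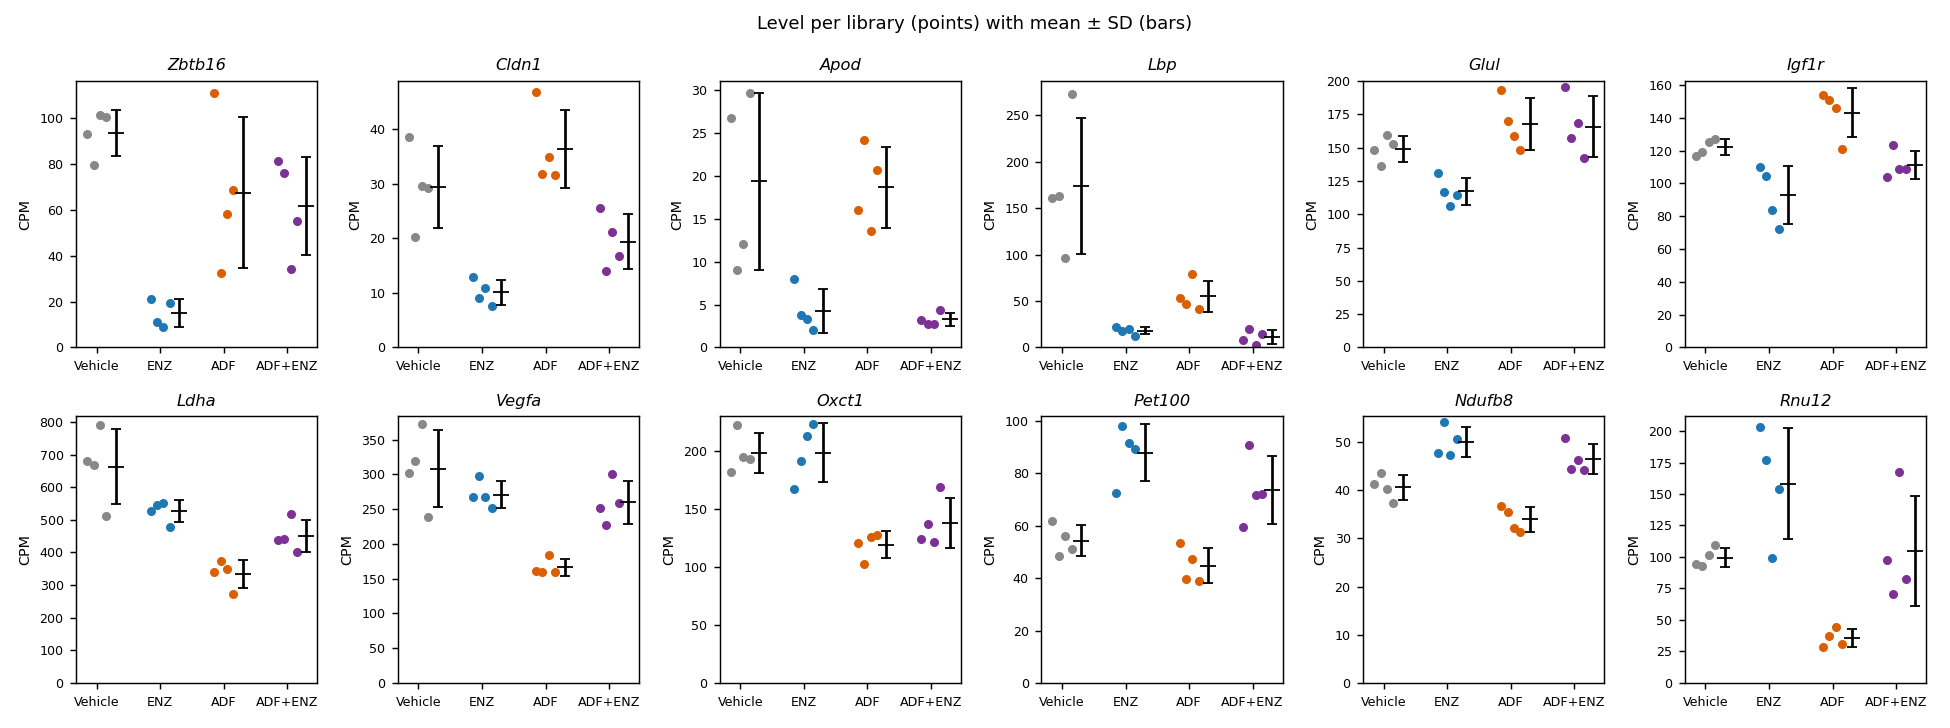
CPM per library for 12 genes in all 4 groups: points are single libraries, bars the mean ± SD of 4, and each y axis starts at 0. In each of the genes Zbtb16, Cldn1, Apod, Lbp, Glul and Igf1r the 4 ADF points lie above the 4 ENZ points, and in Ldha, Vegfa, Oxct1, Pet100, Ndufb8 and Rnu12 they lie below.

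The protein-coding genes with the largest non-overlapping differences in favour of ADF were of varied function. Cldn1 encodes claudin 1, a tight-junction protein. It stood at 46.8, 31.8, 35.0 and 31.7 CPM in ADF against 12.9, 9.08, 10.8 and 7.68 CPM in ENZ, and the lowest ADF library was far above the highest ENZ library. The difference was 1.86 ± 0.22 (edgeR adjusted p = 0.000300). Relative to Vehicle, Cldn1 differed by 0.30 (edgeR adjusted p = 0.376) in ADF and -1.55 (edgeR adjusted p = 0.000717) in ENZ. Apod, which encodes a lipid-carrying apolipoprotein, had 16.1, 24.2, 13.6 and 20.7 CPM in ADF and 7.96, 3.82, 3.37 and 1.99 CPM in ENZ. No ADF library fell into the ENZ range, and the difference of 2.19 ± 0.44 passed (edgeR adjusted p = 0.0115). Lamc3, a laminin chain of basement membranes, was higher by 1.73 ± 0.33, with 10.8, 11.4, 22.2 and 23.4 CPM in ADF and 6.71, 4.03, 4.99 and 4.90 CPM in ENZ (edgeR adjusted p = 0.00856). Kif17, a kinesin motor, and Nckap5 were higher by 1.67 ± 0.33 and 1.67 ± 0.33 (edgeR adjusted p = 0.00866 and 0.00656). Thsd7a, a thrombospondin-repeat membrane protein, was higher by 2.11 ± 0.52 (edgeR adjusted p = 0.0299). Synpo2, an actin-binding protein, Omd, a keratan-sulfate proteoglycan, and Naip1, an inflammasome sensor, were higher by 1.44, 1.51 and 1.51. Cldn1, Lamc3, Kif17 and Nckap5 passed in all 8 fits that left out 1 library. Apod was lost without ENZ replicate 3 (adjusted p = 0.0527), Thsd7a in 3 of the 8 fits (adjusted p = 0.0777 to 0.107), Synpo2 in 4 of the 8 fits (adjusted p = 0.0628 to 0.0874), Omd in 6 of the 8 fits (adjusted p = 0.0534 to 0.129) and Naip1 in 5 of the 8 fits (adjusted p = 0.0502 to 0.114). Without ADF replicate 2, which alone held 31.7 CPM, the Naip1 difference was 0.83. With GC and length trends removed its adjusted p was 0.0563.

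Among inflammatory and acute-phase genes, 3 of 35 tested members were higher in ADF and 1 was lower (against 3.93% and 4.18% of all tested genes). Lbp, the lipopolysaccharide-binding protein of the acute phase, had 53.3, 47.3, 79.1 and 41.1 CPM in ADF and 22.0, 18.2, 19.8 and 12.7 CPM in ENZ. The groups were fully apart, at a difference of 1.61 ± 0.44 (edgeR adjusted p = 0.0421), and both lay below the Vehicle mean of 173 ± 73.4 CPM (SD, n = 4). Il18r1, a chain of the interleukin 18 receptor, was higher by 1.22 ± 0.27 (edgeR adjusted p = 0.0164), and Serpina3n, described above, was the third. The Il18r1 mean was 17.0 ± 6.84 CPM in ADF and 7.40 ± 2.10 CPM in ENZ, both below the 49.5 ± 8.46 CPM of Vehicle (SD, n = 4 each). Il1a, the cytokine interleukin 1 alpha, was lower: 0.959, 1.84, 0.787 and 0.932 CPM in ADF and 1.88, 2.73, 3.37 and 1.99 CPM in ENZ. Its ranges almost touched, since ADF replicate 2 came just under the lowest ENZ library, and its difference was -1.11 ± 0.30 (edgeR adjusted p = 0.0310). In the interferon list 2 of 41 members were higher, near the 3.93% of all tested genes, Oas2 by 0.82 ± 0.20 and Ifit2 by 0.38 ± 0.11 (edgeR adjusted p = 0.0193 and 0.0334), both antiviral effectors, and 0 were lower. Leaving out 1 library ended the call of Lbp in 7 of the 8 fits (adjusted p = 0.0570 to 0.114), of Il18r1 in 3 of the 8 fits (adjusted p = 0.0506 to 0.0601), of Il1a in 5 of the 8 fits (adjusted p = 0.0604 to 0.122), of Oas2 in 4 of the 8 fits (adjusted p = 0.0526 to 0.0907) and of Ifit2 in 4 of the 8 fits (adjusted p = 0.0906 to 0.116). Ifit2 also did not pass with GC and length trends removed (adjusted p = 0.0937).

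Targets that FOXO factors activate on fasting were higher in ADF in 4 of 29 tested members (against 3.93% of all tested genes). In this list 0 were lower (against 4.18%), and the median was 0.17. With GC and length trends removed the counts were again 4 and 0, and without ENZ replicate 3 they were 2 and 0. Igf1r, the receptor for insulin-like growth factors, had 154, 151, 146 and 121 CPM in ADF and 110.2, 105, 83.8 and 72.3 CPM in ENZ. The lowest ADF library was above the highest ENZ library, and the difference was 0.63 ± 0.11 (edgeR adjusted p = 0.00332). The Vehicle mean of Igf1r, 122 ± 4.85 CPM (SD, n = 4), lay between the means of ADF (143 CPM) and ENZ (92.7 CPM). Fbxo32, the muscle-atrophy ubiquitin ligase atrogin 1, had 40.5, 37.0, 47.3 and 41.6 CPM in ADF and 22.1, 27.0, 26.8 and 25.9 CPM in ENZ. It was likewise fully separated, by 0.70 ± 0.14 (edgeR adjusted p = 0.00781). Cpt1a, which admits fatty acids into mitochondria, stood at 306, 266, 297 and 288 CPM in ADF and 181, 242, 178 and 205 CPM in ENZ, a difference of 0.52 ± 0.12 (edgeR adjusted p = 0.0137). Its difference from Vehicle was 0.49 (edgeR adjusted p = 0.0165) in ADF and -0.03 (edgeR adjusted p = 0.913) in ENZ. Pik3ip1, an inhibitor of PI3 kinase, was higher by 0.65 ± 0.15 (edgeR adjusted p = 0.0141), with ENZ replicate 1 inside the ADF range. With Cpt1a these are the 4 members that passed. Irs2, the insulin receptor substrate, did not pass at 0.55 ± 0.23 (edgeR adjusted p = 0.145), and Eif4ebp1, the translation repressor that mTOR controls, was at 0.00. In the insulin, IGF and mTOR list 2 of 35 members were higher, near the 3.93% of all tested genes, Igf1r and Rictor, a component of mTOR complex 2 (0.34 ± 0.10, edgeR adjusted p = 0.0461), and 0 were lower. Arntl, the core activator of the circadian clock, was higher by 0.67 ± 0.14 (edgeR adjusted p = 0.00887), the only one of 16 clock genes to pass (against 3.93% of all tested genes higher). Its mean was 21.1 ± 2.22 CPM in Vehicle, 22.3 ± 4.96 CPM in ADF and 14.0 ± 1.22 CPM in ENZ (SD, n = 4 each). Igf1r, Fbxo32 and Arntl passed whichever library was left out, Cpt1a was lost without ENZ replicate 3 (adjusted p = 0.0657), and Pik3ip1 and Rictor were lost in 3 of the 8 fits (adjusted p = 0.0510 to 0.0640) and 7 of the 8 fits (adjusted p = 0.0649 to 0.156). Rictor was also lost with GC and length trends removed (adjusted p = 0.325).

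Enzymes that burn ketone bodies and fatty acids had 1 of 23 tested members higher in ADF, Cpt1a, and 2 lower (against 3.93% and 4.18% of all tested genes). Oxct1, the mitochondrial enzyme that activates acetoacetate so that ketone bodies can be used as fuel, was lower. Its levels were 120.5, 103, 125 and 128 CPM in ADF and 167, 191, 212 and 223 CPM in ENZ. The highest ADF library stayed below the lowest ENZ library, and the difference of -0.74 ± 0.11 passed in every fit that left out 1 library (edgeR adjusted p = 0.00105 with all). Against Vehicle the difference was -0.73 (edgeR adjusted p = 0.000937) in ADF and 0.01 (edgeR adjusted p = 0.985) in ENZ. Etfa, an electron carrier of fatty acid oxidation, was lower, at -0.29 ± 0.09 (edgeR adjusted p = 0.0430), a call lost in 7 of the 8 fits (adjusted p = 0.0619 to 0.133) that left out 1 library. Of 19 genes in fatty acid synthesis 0 passed. In cholesterol synthesis, 22 of 25 differences were below 0 with a median of -0.40, but 2 genes passed, both lower (against 4.18% of all tested genes). These were Fdft1, squalene synthase (-0.61 ± 0.17, edgeR adjusted p = 0.0360), and Sc5d, a late-step desaturase (-0.49 ± 0.15, edgeR adjusted p = 0.0444). Neither call held in most of the fits that left out 1 library, Fdft1 being lost in 6 and Sc5d in 7 of 8. The list had 0 calls without ADF replicate 1, ADF replicate 3, ADF replicate 4, ENZ replicate 2 or ENZ replicate 3, 1 without ADF replicate 2 or ENZ replicate 4, and 5 without ENZ replicate 1.

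Glycolysis gave lower calls in ADF and no higher ones. Of 23 tested members 3 passed, all lower (against 4.18% of all tested genes). The list median was -0.31, and 19 of the 23 differences were below 0. The summed level of the list was 3250.3 to 3911 CPM over the ADF libraries and 4508 to 5221 CPM over the ENZ libraries. Ldha, the lactate dehydrogenase subunit that turns pyruvate into lactate, had 341, 373, 349.7 and 272 CPM in ADF and 528, 546, 552 and 478 CPM in ENZ. All 4 ADF libraries lay below all 4 ENZ libraries, and the difference was -0.66 ± 0.12 (edgeR adjusted p = 0.00470). Pkm, pyruvate kinase, was lower, at -0.50 ± 0.12 (edgeR adjusted p = 0.0184), and Aldoa, aldolase A, at -0.53 ± 0.15 (edgeR adjusted p = 0.0402). Relative to Vehicle, Ldha differed by -0.99 (edgeR adjusted p = 0.000207) in ADF and by -0.34 (edgeR adjusted p = 0.115) in ENZ, and Aldoa by -1.07 (edgeR adjusted p = 0.000690) and -0.54 (edgeR adjusted p = 0.0453). Ldha passed in every fit that left out 1 library, Pkm was lost without ADF replicate 4 (0.0771) or ENZ replicate 3 (0.0683), and Aldoa was lost in 6 of the 8 fits (adjusted p = 0.0585 to 0.136). The list had 1 call without ADF replicate 4 or ENZ replicate 3, and 2 to 4 in the other fits. Aldoa was also lost with GC and length trends removed (adjusted p = 0.0627).

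Several glycolytic genes are classical targets of the hypoxia-inducible factors (HIF), which bind the core ACGTG. The 250 bases upstream of one Ldha start site hold 0 matches to it, and those of another are shown because they hold 5. Both strands are counted, so a stretch CACGTG counts once on each strand. The sequence is RefSeq's for GRCm38.p6, chr7:46845554-46845803, plus strand, 5′ to 3′, with each ACGTG or its reverse complement CACGT in capitals:
Ldha promoter: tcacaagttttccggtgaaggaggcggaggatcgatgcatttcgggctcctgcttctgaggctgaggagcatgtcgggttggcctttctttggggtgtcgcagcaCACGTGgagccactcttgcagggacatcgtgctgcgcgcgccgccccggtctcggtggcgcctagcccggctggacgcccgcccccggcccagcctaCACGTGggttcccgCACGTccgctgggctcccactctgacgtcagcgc
Of the 22 list members with a RefSeq promoter entry, 11 hold ACGTG on either strand in this window of at least 1 promoter (14 of 35 promoters), against 16.6% of all 32851 promoters. The half-site of the androgen and glucocorticoid response element, TGTTCT on either strand, was in 0 of 9 promoters of the 8 genes with an entry among the 12 coding genes with the largest higher differences, against 16.1% of all promoters. This set is too small, and was picked by its values in these data, so no depletion can be read from it. A match or its absence describes these letters in this window and says nothing about binding.

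Hypoxia-responsive genes outside glycolysis gave 2 of 27 members lower (against 4.18% of all tested genes) and 0 higher. The lower members were Fam162a, a mitochondrial protein (-0.67 ± 0.14, edgeR adjusted p = 0.00887), and Higd1a, a respiratory chain regulator (-0.64 ± 0.16, edgeR adjusted p = 0.0197). Among 17 angiogenic ligands and receptors Vegfa alone passed, lower (against 4.18% of all tested genes). This main vascular growth factor had 161, 160.1, 184 and 159.6 CPM in ADF and 267, 297, 267 and 252 CPM in ENZ. The ADF libraries were tightly grouped below every ENZ library, at a difference of -0.71 ± 0.11 (edgeR adjusted p = 0.00163). From Vehicle, Vegfa differed by -0.89 (edgeR adjusted p = 0.000263) in ADF and by -0.18 (edgeR adjusted p = 0.386) in ENZ. Stc1, stanniocalcin 1, a secreted regulator of calcium and phosphate handling, had 7.67, 10.9, 12.8 and 14.3 CPM in ADF and 28.8, 24.8, 21.5 and 17.6 CPM in ENZ, also without overlap, and was lower, at -1.01 ± 0.23 (edgeR adjusted p = 0.0163). Emcn, a sialomucin of the endothelium, was the only one of 9 endothelial markers to pass, lower, at -0.60 ± 0.15 (edgeR adjusted p = 0.0253), a call lost in 4 of the 8 fits that left out 1 library (adjusted p = 0.0513 to 0.0849). In bulk tumour RNA fewer cells of a type and less RNA per cell cannot be told apart. The call of Higd1a was lost without ADF replicate 4 (adjusted p = 0.0662) or ENZ replicate 2 (0.0608), and Fam162a, Vegfa and Stc1 passed in all 8 such fits.

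Among protein-coding genes the remaining large deficits in ADF were in genes of varied function. Kcne3, a potassium channel subunit, had 1.20, 3.08, 3.23 and 3.94 CPM in ADF and 8.50, 5.80, 5.59 and 6.06 CPM in ENZ, a difference of -1.16 ± 0.27 (edgeR adjusted p = 0.0158). Pet100, a chaperone for the assembly of respiratory complex IV, had 53.3, 39.7, 47.2 and 38.9 CPM in ADF and 72.6, 98.1, 91.6 and 89.3 CPM in ENZ. Both genes were fully separated and passed whichever library was left out, Pet100 at -0.98 ± 0.13 (edgeR adjusted p = 0.000365). For Pet100 the difference from Vehicle was -0.28 (edgeR adjusted p = 0.176) in ADF and 0.70 (edgeR adjusted p = 0.00361) in ENZ. Dctpp1, a pyrophosphatase that cleans the nucleotide pool, was lower, at -0.96 ± 0.15, with 7.75, 10.7, 8.74 and 8.17 CPM in ADF and 16.9, 18.1, 19.8 and 14.2 CPM in ENZ (edgeR adjusted p = 0.00146). Its difference from Vehicle was -0.08 (edgeR adjusted p = 0.782) in ADF and 0.88 (edgeR adjusted p = 0.00173) in ENZ. Dll1, a Notch ligand, was at 2.29 ± 0.553 CPM in ADF, 4.53 ± 0.868 CPM in ENZ and 1.74 ± 0.277 CPM in Vehicle (SD, n = 4 each), with an ADF to ENZ difference of -0.97 ± 0.25 (edgeR adjusted p = 0.0261). Cacng4, a regulator of calcium channels and AMPA receptors, Ephb6, an ephrin receptor without kinase activity, Ttc9 and Fam213a were lower, at -1.47 ± 0.33, -0.98 ± 0.28, -0.97 ± 0.27 and -0.96 ± 0.28 (edgeR adjusted p = 0.0143, 0.0395, 0.0338 and 0.0411). Removal of 1 library ended the call of Dll1 in 5 of the 8 fits (adjusted p = 0.0519 to 0.0609), of Cacng4 in 2 of the 8 fits (adjusted p = 0.0563 to 0.0680), of Ttc9 in 5 of the 8 fits (adjusted p = 0.0566 to 0.0921), of Fam213a in 7 of the 8 fits (adjusted p = 0.0553 to 0.124) and of Ephb6 in 8 of the 8 fits (adjusted p = 0.0542 to 0.0942).

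Mitochondrial respiration was the pathway with the largest share of members lower in ADF, among the 33 pathway lists examined. Of 71 nuclear-encoded subunits of the respiratory complexes, 29 were lower (against 4.18% of all tested genes) and 0 higher, with a median of -0.30 and 70 of 71 differences below 0. The summed level was 3369 to 3842 CPM over ADF and 4169 to 4679 CPM over ENZ libraries. Ndufb8, a subunit of complex I, had 36.8, 35.4, 32.2 and 31.4 CPM in ADF and 47.8, 54.2, 47.4 and 50.7 CPM in ENZ. The groups were clear of each other, and the difference was -0.56 ± 0.08 (edgeR adjusted p = 0.000783). Uqcrq of complex III, with 40.1, 39.0, 36.6 and 35.2 CPM in ADF and 54.7, 59.9, 57.0 and 52.2 CPM in ENZ, was lower, at -0.57 ± 0.09 (edgeR adjusted p = 0.00132). Cox5a of complex IV, at 23.5, 23.04, 23.5 and 18.1 CPM in ADF and 29.0, 31.8, 36.7 and 33.9 CPM in ENZ, was lower, at -0.58 ± 0.10 (edgeR adjusted p = 0.00288). In both the highest ADF library was below the lowest ENZ library. Ndufs8, also of complex I, was lower, at -0.62 ± 0.10 (edgeR adjusted p = 0.00231). All 4 subunits passed whichever library was left out. Of 25 TCA cycle genes 5 were lower (against 4.18% of all tested genes) and 0 higher. Sdhb, a subunit of succinate dehydrogenase, was at 53.6, 48.9, 45.0 and 40.1 CPM in ADF and 60.9, 63.7, 74.8 and 72.9 CPM in ENZ (-0.54 ± 0.09, edgeR adjusted p = 0.00221). Idh3b and Idh3a, subunits of isocitrate dehydrogenase, and Mdh2, malate dehydrogenase, were lower, at -0.42 ± 0.10, -0.36 ± 0.09 and -0.36 ± 0.09 (edgeR adjusted p = 0.0144, 0.0276 and 0.0278). Of 15 mitochondrially encoded genes 3 were lower (against 4.18% of all tested genes), 0 higher and 15 had differences below 0, with a median of -0.44. For mt-Nd2, a complex I subunit, the levels were 315, 270.0, 453 and 324 CPM in ADF and 519.9, 526, 641 and 723 CPM in ENZ, a difference of -0.82 ± 0.19 (edgeR adjusted p = 0.0193). The count for the nuclear-encoded subunits was 22 with GC and length trends removed and ran from 11 (without ADF replicate 4 or ENZ replicate 3) to 29 (without ENZ replicate 1) when 1 library was left out. It was 12 without ENZ replicate 4, 14 without ADF replicate 3 and 17 without ENZ replicate 2. The TCA cycle count was 1 without ADF replicate 4 or ENZ replicate 3, 2 without ADF replicate 3, ENZ replicate 2 or ENZ replicate 4, and 3 without ADF replicate 1. Of the mitochondrially encoded genes 0 passed without ADF replicate 4, ENZ replicate 3 or ENZ replicate 4, 1 without ADF replicate 2 or ENZ replicate 2, and 5 without ADF replicate 3. These transcripts are short, with a median longest transcript of 1005 bases for the nuclear-encoded list against 3381 for all tested coding genes, and a length trend over all genes is described below. With GC and length trends removed, the 3 mitochondrially encoded genes that passed, mt-Nd2, mt-Nd6 and mt-Rnr1, passed again. Their differences were then -1.09, -0.69 and -0.79, against -0.82, -0.43 and -0.55 as fitted.

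Protein synthesis gave lower calls too. Of 78 cytosolic ribosomal protein genes 18 were lower in ADF (against 4.18% of all tested genes) and 0 higher, with a median of -0.27 and 76 differences below 0. Rpl13a, a protein of the large subunit, had 18.9, 19.6, 14.96 and 14.9 CPM in ADF and 27.4, 30.8, 37.3 and 32.6 CPM in ENZ. The ENZ libraries were all above the ADF libraries, and the difference was -0.90 ± 0.11 (edgeR adjusted p = 0.000215). Its difference from Vehicle was -0.21 (edgeR adjusted p = 0.251) in ADF and 0.70 (edgeR adjusted p = 0.00105) in ENZ. Rpl35, also of the large subunit, stood at 73.5, 75.7, 71.8 and 65.1 CPM in ADF and 99.4, 100.5, 98.9 and 95.8 CPM in ENZ, a difference of -0.46 ± 0.08 (edgeR adjusted p = 0.00199). Ribosomal protein genes have many processed copies elsewhere in the genome, so their counts are uncertain. The share of reads aligned to several places was lower in ADF (4.70% against 7.89%). With this share as a covariate 0 genes passed. In that fit the differences of Rps3 (0.57) and Rpl15 (0.10) turned direction, whereas those of Rpl13a and Rpl35 did not. The share separates ADF from ENZ with no overlap, so its part in these values cannot be told apart from the treatment. Of 47 translation factors 7 were lower (against 4.18% of all tested genes), among them Eif3h (-0.49 ± 0.10) and Eef1b2 (-0.44 ± 0.09), which act in initiation and elongation (edgeR adjusted p = 0.00887 and 0.00936). The single higher member was Eef2k, the kinase that inhibits elongation factor 2, at 33.3, 35.6, 33.4 and 38.9 CPM in ADF and 29.2, 22.0, 20.3 and 26.5 CPM in ENZ. Its ranges did not overlap, and the difference was 0.53 ± 0.12 (edgeR adjusted p = 0.0126). The Eef2k mean was 38.1 ± 2.50 CPM in Vehicle, 35.3 ± 2.60 CPM in ADF and 24.5 ± 4.05 CPM in ENZ (SD, n = 4 each). Of 46 MYC-driven and ribosome biogenesis genes 5 were lower (against 4.18% of all tested genes) and 0 higher. Dctpp1 and the mitochondrial scaffold Phb (-0.46 ± 0.10, edgeR adjusted p = 0.0101) were among the lower members. Myc had 153, 118, 96.8 and 101 CPM in ADF and 116, 119, 100.4 and 79.6 CPM in ENZ, which did not pass (difference 0.18 ± 0.15, edgeR adjusted p = 0.459). The ribosomal protein count was 10 with the trends removed and ran from 2 (without ADF replicate 4, ENZ replicate 2 or ENZ replicate 3) to 27 (without ADF replicate 1). Between these lay 4 without ENZ replicate 4, 5 without ADF replicate 3, 8 without ADF replicate 2 and 24 without ENZ replicate 1. Lower translation factors numbered 2 when ADF replicate 3, ADF replicate 4 or ENZ replicate 3 was dropped, 3 and 4 when ENZ replicates 4 and 2 were, and at most 10. MYC-driven genes numbered 2 (without ADF replicate 4 or ENZ replicate 3), 3 (without ADF replicate 3, ENZ replicate 2 or ENZ replicate 4) and at most 14 (without ENZ replicate 1). Eef2k was lost without ADF replicate 4 (0.0561) or ENZ replicate 3 (0.0601).

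Among folding factors, in the endoplasmic reticulum list 7 of 29 genes were lower and 1, Sel1l, was higher (against 4.18% and 3.93% of all tested genes). Calr, calreticulin, a calcium-binding chaperone, had 369.8, 439.7, 385 and 359 CPM in ADF and 469.7, 552, 607 and 566 CPM in ENZ. The groups did not overlap, at -0.50 ± 0.10 (edgeR adjusted p = 0.00748). Sec61b, a subunit of the translocon, was lower, at -0.54 ± 0.11 and Dnajb11, a co-chaperone of BiP, at -0.39 ± 0.08 (edgeR adjusted p = 0.00689 and 0.00859). Of 23 heat shock and cytosolic chaperone genes 4 were lower (against 4.18% of all tested genes) and 0 higher. The lower members included Stip1, the adaptor between HSP70 and HSP90 (-0.43 ± 0.10, edgeR adjusted p = 0.0142). In this list 0 passed without ADF replicate 4 or ENZ replicate 3, 2 without ADF replicate 3, ENZ replicate 2 or ENZ replicate 4, and 8 without ENZ replicate 1. The endoplasmic reticulum list had 3 lower members without ADF replicate 4, ENZ replicate 3 or ENZ replicate 4, 4 without ADF replicate 1 and 9 at most, and Sel1l passed in 1 of the 8 fits. In the ATF4 and amino acid response 2 of 40 members were higher and 1 was lower, shares near the 3.93% and 4.18% of all tested genes. Nupr1, a stress-induced chromatin protein, and Slc7a5, a leucine transporter, were higher by 0.53 ± 0.14 and 0.33 ± 0.09, and Cebpb, a leucine-zipper transcription factor, was lower, at -0.59 ± 0.17 (edgeR adjusted p = 0.0308, 0.0313 and 0.0467). Dropping 1 library ended the call of Nupr1 in 6 of the 8 fits (adjusted p = 0.0529 to 0.0977), of Slc7a5 in 6 of the 8 fits (adjusted p = 0.0515 to 0.0793), which was also lost with GC and length trends removed (adjusted p = 0.0654), and of Cebpb in 7 of the 8 fits (adjusted p = 0.0567 to 0.146).

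**Figure D4:**
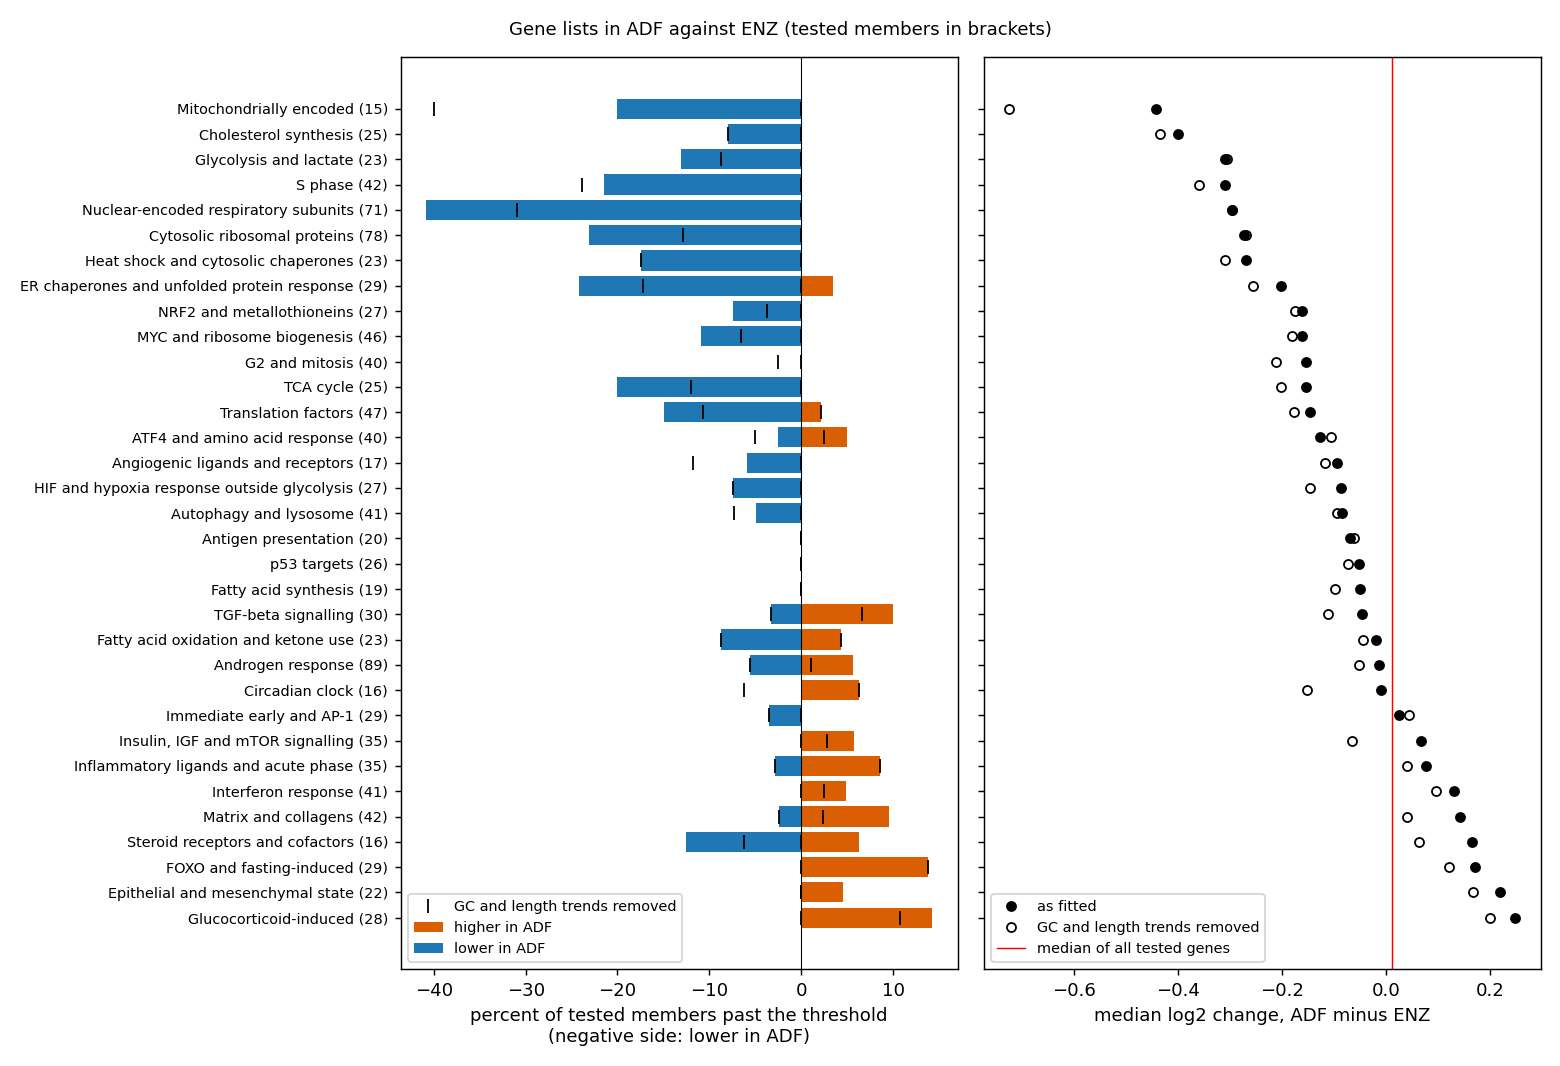
The 33 pathway lists, ordered by median difference: on the left the percent of tested members that passed, higher in ADF to the right of 0 and lower to the left, with black ticks for the counts after GC and length trends were removed, and on the right the median log2 difference. Nuclear-encoded respiratory subunits have the longest lower bar (29 of 71), and the glucocorticoid-induced and FOXO lists have the longest higher bars (4 of 28 and 4 of 29). Over all tested genes 3.93% were higher and 4.18% lower.

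Genes of DNA replication were lower in ADF in 9 of 42 tested members (against 4.18% of all tested genes) and higher in 0. The list median was -0.31, with all 42 differences below 0. Rfc3, a subunit of the clamp loader, had 38.9, 40.3, 30.2 and 35.9 CPM in ADF and 57.2, 49.96, 53.8 and 59.8 CPM in ENZ. The highest ADF library was well under the lowest ENZ library, at -0.60 ± 0.12 (edgeR adjusted p = 0.00738). Against Vehicle, Rfc3 differed by 0.10 (edgeR adjusted p = 0.641) in ADF and by 0.70 (edgeR adjusted p = 0.00179) in ENZ. Tyms, thymidylate synthase, was lower, at -0.58 ± 0.14 and Rfc2, another clamp loader subunit, at -0.46 ± 0.11 (edgeR adjusted p = 0.0193 and 0.0153). Leaving out 1 library ended the call of Tyms in 4 of the 8 fits (adjusted p = 0.0507 to 0.0829) and of Rfc2 in 2 of the 8 fits (adjusted p = 0.0570 to 0.0680), and Rfc3 kept its call in all 8. The list count ran from 1 (without ADF replicate 4 or ENZ replicate 3) to 16 (without ENZ replicate 1) when 1 library was left out, with 2 without ENZ replicate 4, 3 without ADF replicate 3 and 6 without ADF replicate 1. It was 10 with GC and length trends removed. Of 40 genes of the G2 phase and mitosis 0 passed (against 8.1% of all tested genes in either direction). Their median was -0.15, with 34 differences below 0 and 6 above. The difference between the lists was not tested.

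Histone genes are transcribed in S phase. Of 58 tested genes with Hist symbols 31 were lower in ADF (against 4.18% of all tested genes) and 0 higher, with a median of -0.70 and 57 differences below 0. This group was noticed after the values were seen and was on no list. The summed histone level was 1471 to 1973 CPM in ADF, 2207 to 3085 CPM in ENZ, 1449 to 2333 CPM in Vehicle and 1799 to 2370.2 CPM in ADF+ENZ. The ADF and ENZ ranges did not overlap, whereas the Vehicle range ran into both. Hist1h4a, an H4 gene, had 21.3, 30.1, 23.4 and 17.2 CPM in ADF and 37.3, 44.0, 60.9 and 57.2 CPM in ENZ, a difference of -1.12 ± 0.19 (edgeR adjusted p = 0.00429). Hist1h4c, another H4 gene, had 48.4, 55.6, 55.4 and 41.8 CPM in ADF and 91.9, 89.2, 109 and 101 CPM in ENZ, a difference of -0.96 ± 0.14 (edgeR adjusted p = 0.000921). Hist1h1a, a linker histone, was lower, at -1.02 ± 0.19 (edgeR adjusted p = 0.00488). Most messages of this family end in a conserved stem-loop in place of a poly(A) tail, and it is printed because it defines that class. It was found in the annotated transcripts (GENCODE M21) of 41 of the 58 genes, most often, in 22 of them, as this 16-base form, written 5′ to 3′ with the whole element in capitals:
histone stem-loop: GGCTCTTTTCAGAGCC
Of the 41 genes with a stem-loop 25 were lower (median -0.71), and of the 17 without one in the annotated transcript 6 were lower (median -0.63). The difference between these was not tested. Hist3h2a, Hist3h2ba and Hist2h2be had differences of -0.01, -0.07 and 0.17 and did not pass. Histone genes are near-identical copies, so the value of any single one is uncertain. The library protocol, which decides how well messages without a poly(A) tail are captured, is, apart from the extraction of total RNA, unknown from the sources used here. The count was 22 with GC and length trends removed and ran from 12 (without ADF replicate 4 or ENZ replicate 3) to 42 (without ENZ replicate 1) when 1 library was left out. It was 14 without ENZ replicate 4, 16 without ADF replicate 3 and 19 without ADF replicate 1.

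Small non-coding RNAs were another group with many lower members. Of 121 tested small nuclear, small nucleolar and Cajal body RNAs 32 were lower in ADF (against 4.18% of all tested genes) and 1 was higher. The class as a whole was less one-sided than its calls, with 67 of 121 differences below 0 and a median of -0.15. Fits that left out 1 library gave 28 to 32 lower calls. Rnu12, the U12 RNA of the minor spliceosome that removes a rare class of introns, had 28.9, 37.4, 44.3 and 31.2 CPM in ADF and 203, 177, 99.4 and 154 CPM in ENZ. The highest ADF library was far below the lowest ENZ library, and the difference was -2.16 ± 0.27 (edgeR adjusted p = 0.000737). Against Vehicle, Rnu12 differed by -1.49 (edgeR adjusted p = 0.00511) in ADF and by 0.67 (edgeR adjusted p = 0.152) in ENZ. Rny3, a Y RNA bound by the Ro autoantigen, had 21.9, 37.4, 41.3 and 19.2 CPM in ADF and 216, 107, 98.5 and 104 CPM in ENZ, a difference of -2.13 ± 0.39 (edgeR adjusted p = 0.00859). Snora23, an H/ACA RNA of the kind that guides pseudouridylation, had 5.12, 6.75, 9.05 and 5.73 CPM in ADF and 29.4, 28.2, 17.7 and 17.6 CPM in ENZ. It was lower, at -1.79 ± 0.20 (edgeR adjusted p = 0.000201). Snord15a, a C/D RNA of the kind that guides ribose methylation, had 3.92, 4.62, 4.09 and 2.94 CPM in ADF and 16.3, 12.6, 10.2 and 11.0 CPM in ENZ. It was lower, at -1.67 ± 0.22 (edgeR adjusted p = 0.000300). In all 4 RNAs the groups were completely apart. Among predicted genes of these classes Gm24525, Gm25541 and Gm22767 differed by -2.43 ± 0.40, -2.29 ± 0.38 and -2.05 ± 0.29, each under 10 CPM in all 8 libraries (edgeR adjusted p = 0.00186, 0.00217 and 0.000522). Snora23 and Snord15a were picked after their values were seen.

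One representative of each class is printed from the annotated transcripts (GENCODE M21), 5′ to 3′, so that the elements that define the classes can be seen. Capitals mark the AATTTTTG Sm-protein site of Rnu12, the ACA box of Snora23, which lies 3 bases from the end, and every TGATGA (C box) and CTGA (D box) match of Snord15a:
Rnu12: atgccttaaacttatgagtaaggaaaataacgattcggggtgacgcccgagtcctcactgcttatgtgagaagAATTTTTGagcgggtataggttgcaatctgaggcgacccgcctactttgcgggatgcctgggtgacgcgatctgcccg
Snora23: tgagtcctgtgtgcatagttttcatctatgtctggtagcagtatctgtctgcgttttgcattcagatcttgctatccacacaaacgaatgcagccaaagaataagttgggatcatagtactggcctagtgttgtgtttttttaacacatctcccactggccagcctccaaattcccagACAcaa
Snord15a: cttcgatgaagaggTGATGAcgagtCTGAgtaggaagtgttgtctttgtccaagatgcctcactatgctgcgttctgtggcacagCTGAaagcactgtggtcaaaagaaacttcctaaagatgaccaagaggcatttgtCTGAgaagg
These RNAs are 151, 184 and 148 bases long, and many small nucleolar RNAs lie inside introns of host genes, where reads can be assigned to either. The sources used here do not say whether the counting used strand. The share of counts in small RNA classes is one of the 7 library measures that separate ADF from ENZ, and its part in these results cannot be told apart from the treatment. Among IDs with no symbol in the annotation, ENSMUSG00002076161 had 7382, 6533, 8027 and 6548 CPM in ADF and 18610.3, 16160.5, 14526 and 13473 CPM in ENZ, and was lower, at -1.14 ± 0.14 (edgeR adjusted p = 0.000215). ENSMUSG00002076809 was lower, at -1.25 ± 0.16 (edgeR adjusted p = 0.000215). No symbol was matched to them here, and both were picked after their values were seen.

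Transcript length went with the direction of the calls. Of 774 tested coding genes whose longest annotated transcript is at least 8000 bases, 142 were higher (18.3%) and 4 lower, and of 604 under 1000 bases 6 were higher and 106 lower (17.5%). In between, 10.3% were lower and 0.759% higher at 1000 to 2000 bases, 4.36% and 1.52% at 2000 to 4000, and 1.94% and 3.70% at 4000 to 8000. The median longest transcript was 6331.5 bases for the 416 coding genes higher in ADF and 2004 for the 675 lower, whereas median GC content was alike at 50.05% and 50.02%. Plec, plectin, a cytoskeletal linker whose longest transcript is 15455 bases, had 2935, 3059.7, 3036 and 2922 CPM in ADF and 1789, 1801, 1694 and 1697 CPM in ENZ. The 8 libraries formed a tight cluster per group, and the difference was 0.78 ± 0.09 (edgeR adjusted p = 0.000201). Flnc, the actin crosslinker filamin C, had 452, 426, 444 and 384 CPM in ADF and 272, 257, 242 and 232 CPM in ENZ, without overlap, and was higher by 0.77 ± 0.09 (edgeR adjusted p = 0.000201). Akap13, a kinase anchor, and Nav1, a neuron navigator, were higher by 0.72 ± 0.10 and 0.78 ± 0.11 (edgeR adjusted p = 0.000573 and 0.000737). At the short end Cops9, a subunit of the COP9 signalosome (653 bases), had 22.9, 24.8, 22.7 and 23.2 CPM in ADF and 44.4, 37.1, 37.0 and 37.8 CPM in ENZ and was lower, at -0.74 ± 0.09 (edgeR adjusted p = 0.000215). Uqcc2, an assembly factor of complex III, and S100a1, a calcium-binding protein, were lower, at -0.71 ± 0.09 and -0.72 ± 0.10 (edgeR adjusted p = 0.000298 and 0.000365). These 7 genes were picked after their values were seen, and all 7 passed whichever library was left out. With the trends on GC content and length removed, the long bin had 12 higher and 18 lower genes and the short bin 5 higher and 80 lower. Leaving out 1 library gave 35 to 159 higher genes in the long bin (35 without ENZ replicate 3, 45 without ADF replicate 4, 61 without ENZ replicate 4 and 63 without ADF replicate 3). The short bin had 33 to 126 lower genes (33 and 62 without ADF replicates 4 and 3, and 38, 46 and 66 without ENZ replicates 3, 4 and 2).

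**Figure D5:**
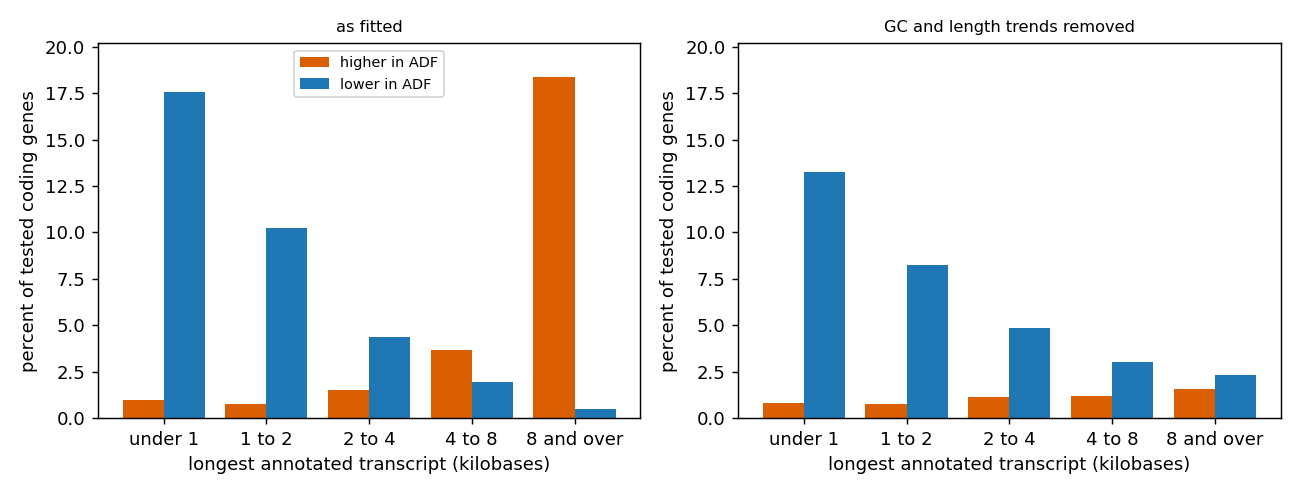
Percent of tested coding genes that passed, by length of the longest annotated transcript, as fitted (left) and with each library's GC and length trends removed (right). As fitted the higher share climbs to 18.3% at 8 kilobases and over and the lower share is 17.5% under 1 kilobase. With the trends removed the longest genes had 12 higher and 18 lower calls and the shortest 5 higher and 80 lower.

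Of 2861 tested genes annotated as TEC (unconfirmed loci), antisense, sense intronic or long intergenic RNA, 265 were higher in ADF and 5 lower (against 3.93% and 4.18% of all tested genes). Their median was 0.37. Leaving out 1 library gave 45 and 116 higher genes in this set when ADF replicates 4 and 3 were dropped, and 46, 77, 135 and 439 when ENZ replicates 3, 4, 2 and 1 were. In this set 181 were higher with GC and length trends removed. Many such loci lie within introns or opposite other genes, so that without strand information their reads cannot be told from those of the overlapping gene. Among those of at least 1 CPM whose groups did not overlap, the largest differences were in Gm47479 (1.90 ± 0.32), Gm43677 (1.89 ± 0.38) and Gm33497 (1.88 ± 0.35), all at under 6 CPM in each of the 8 libraries (edgeR adjusted p = 0.00221, 0.00781 and 0.00470). Neat1, the nuclear RNA that builds paraspeckles, had 2698, 1731, 2192 and 2366 CPM in ADF and 1220.1, 1146, 922 and 978 CPM in ENZ. All ADF libraries were above all ENZ libraries, at 1.07 ± 0.23 (edgeR adjusted p = 0.0120), a call lost without ENZ replicate 3 (adjusted p = 0.0536). Pvt1, a long RNA next to Myc, was higher by 0.69 ± 0.11 (edgeR adjusted p = 0.00168), while Malat1, another abundant nuclear RNA, did not pass (0.25 ± 0.17, edgeR adjusted p = 0.372). These calls sit beside the larger share of reads in no feature in ADF, and its part in them cannot be told apart from the treatment.

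Matrix genes, with a median longest transcript of 5456 bases, were higher in ADF in 4 of 42 tested members and lower in 1 (against 3.93% and 4.18% of all tested genes). The list median was 0.14. Col7a1, the anchoring-fibril collagen, had 166, 199, 241 and 206 CPM in ADF and 108, 126, 129 and 131 CPM in ENZ. The groups did not overlap, the difference was 0.72 ± 0.11 (edgeR adjusted p = 0.000932), and it passed whichever library was left out. Col1a2, a fibrillar collagen chain, Lama3, a laminin chain, and Fn1, fibronectin, were higher by 0.56 ± 0.14, 1.17 ± 0.28 and 0.60 ± 0.18 (edgeR adjusted p = 0.0218, 0.0274 and 0.0486). For Fn1, ADF replicate 1 (5128 CPM) lay inside the ENZ range of 4880.2 to 6123.5 CPM. Mean levels of Col1a2, Lama3 and Fn1 were 2203, 71.0 and 8125 CPM in ADF. In Vehicle they were 2035 ± 73.8, 81.5 ± 19.2 and 11207 ± 2498 CPM (SD, n = 4). Spp1, osteopontin, was lower, with 2605, 2220.3, 2598 and 2564 CPM in ADF and 3111, 3672, 3304 and 3918 CPM in ENZ (-0.49 ± 0.12, edgeR adjusted p = 0.0228). With GC and length trends removed Col7a1 was the only higher member of this list, and Ltbp1 did not pass (adjusted p = 0.155). In TGF-beta signalling the ligands Bmp6 (1.24 ± 0.33) and Bmp4 (0.74 ± 0.21) and Ltbp1, which stores latent TGF-beta in the matrix (0.45 ± 0.12), were higher among 30 members (edgeR adjusted p = 0.0304, 0.0345 and 0.0320), and Pmepa1 was lower. The shares over all tested genes were 3.93% higher and 4.18% lower. Removal of 1 library ended the call of Col1a2 in 5 of the 8 fits (adjusted p = 0.0509 to 0.0754), of Lama3 in 6 of the 8 fits (adjusted p = 0.0526 to 0.0982), of Fn1 in 7 of the 8 fits (adjusted p = 0.0601 to 0.147), of Spp1 in 5 of the 8 fits (adjusted p = 0.0536 to 0.0744), of Bmp6 in 5 of the 8 fits (adjusted p = 0.0634 to 0.114), of Bmp4 in 6 of the 8 fits (adjusted p = 0.0570 to 0.0902) and of Ltbp1 in 5 of the 8 fits (adjusted p = 0.0508 to 0.124).

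Markers were examined of the cell types a subcutaneous tumour can hold. Over the 18 cell type lists 2 genes passed, Emcn, given above, and Dst, against 8.1% of all tested genes in either direction. Dst is an epithelial and neuronal linker protein with a long transcript (0.57 ± 0.12, edgeR adjusted p = 0.0103). With the trends removed Dst was at a log2 difference of 0.14 and did not pass. Summed levels overlapped for fibroblast (7099 to 9664 CPM in ADF, 7780.1 to 8918 CPM in ENZ), macrophage (1333 to 1628 and 1292 to 1810.1 CPM), endothelial (465 to 657 and 375 to 773 CPM) and T cell markers (7.75 to 18.6 and 8.18 to 15.4 CPM). Skeletal muscle markers, which could come from tissue under the skin, summed to 2.80 to 12.8 CPM in ADF and 2.16 to 5.46 CPM in ENZ, with a median difference of 1.05 and 0 of 7 tested members past the test. Medians of 0.52 for pericyte and smooth muscle (8 tested) and -0.62 for neutrophil markers (5 tested) also came with 0 calls. The labelled prostate origin was checked with 11 luminal markers, of which 6 had enough counts to be tested and 0 passed. Their summed level was 878 to 1010.0 CPM in ADF and 788 to 1004 CPM in ENZ, and Krt8 and Krt18 were among them. Pbsn, the probasin gene whose promoter drives the Hi-MYC transgene, had 0 counts in all 8 libraries, which allows a level of up to 0.0534 CPM in ADF and 0.0450 CPM in ENZ (3 counts over each group). Tmprss2, an androgen-activated protease, had 13 counts in the ADF and 14 in the ENZ libraries together and was not tested.

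The remaining lists held few calls. Of 27 NRF2-driven and metallothionein genes 2 were lower (against 4.18% of all tested genes) and 0 higher. The lower members were Txn1, the redox protein thioredoxin (-0.33 ± 0.10), and Taldo1, transaldolase of the pentose phosphate pathway (-0.34 ± 0.08, edgeR adjusted p = 0.0438 and 0.0169). Of 41 autophagy and lysosome genes 2 were lower, near the 4.18% of all tested genes, and 0 higher: Gabarap, an autophagosome protein (-0.37 ± 0.09), and Hexa, a lysosomal hexosaminidase (-0.35 ± 0.09, edgeR adjusted p = 0.0213 and 0.0197). Of 29 immediate early and AP-1 genes 1 was lower, near the 4.18% of all tested genes, and 0 were higher. The lower member was Maff, a small MAF transcription factor (-0.51 ± 0.11, edgeR adjusted p = 0.0102). Dropping single libraries ended the call of Txn1 in 6 of the 8 fits (adjusted p = 0.0504 to 0.152), of Taldo1 in 3 of the 8 fits (adjusted p = 0.0541 to 0.0703), of Gabarap in 4 of the 8 fits (adjusted p = 0.0547 to 0.0785), of Hexa in 3 of the 8 fits (adjusted p = 0.0517 to 0.0615) and of Maff without ADF replicate 4. The lists of p53 targets (26 tested) and antigen presentation (20 tested) had 0 members past the test in either direction. In the epithelial and mesenchymal list 1 of 22 genes was higher, Fn1, near the 3.93% of all tested genes.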

How the data were processed

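RNA-seq counts of 16 tumour libraries were used, 4 per treatment group. The table holds whole-number read counts per gene ID, deposited by the authors without normalization. Per the submitters' processing notes, Trim Galore, HISAT2, featureCounts and DESeq2 were used, and the builds mm39 and GRCh38 are named. The sources used here name no versions, roles or strand setting. The 5 summary entries (reads in no feature, ambiguous, not aligned and the like) were kept out of library sizes and tests and used as library measures. Genes passed filterByExpr (minimum count 10, minimum total 15), and all 16 libraries entered 1 edgeR 4.0.16 quasi-likelihood fit (robust, TMM, R 4.3.3) with ADF against ENZ as the contrast, adjusted by Benjamini-Hochberg over 18946 genes. An SE was taken as the size of the log2 difference over the square root of F. Symbols, classes, lengths and GC content came from a GRCm38 annotation that matched 52133 of 55414 IDs, so no gene coordinates from it are used. Counts of libraries of the same group differed by more than sampling noise in all 12 pairs of ADF and ENZ replicates (chi-square over degrees of freedom 5.81 to 25.0). All 8 were counted singly, although such a spread cannot show that each library is a separate animal.

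Named genes were the 12 largest non-overlapping changes per direction among coding genes of at least 1 CPM, up to 4 per pathway list by smallest p, the 5 largest per direction of other classes, and 10 genes taken whatever their result. Results for some named genes are not reported here. Genes named outside that rule are Flnc, Plec, Akap13, Nav1, Cops9, Uqcc2, S100a1, Hist1h4c, Neat1, Pvt1, Malat1, Emcn, Dst, Snora23 and Snord15a, chosen after their values were seen, with 2 IDs without a symbol and members of lists that are only listed. Members and lists were chosen with earlier results of these data known. On simulated data 72% of 2-fold and 94% of 4-fold changes were recovered among 200 planted in 18946 genes, with 8 false calls. The 18 alternative settings were DESeq2 1.42.0, DESeq2 size factors, limma-voom (limma 3.58.1), other filters, only the ADF and ENZ libraries, coding genes alone, covariates, removal of GC and length trends, and each of the 8 libraries left out. Counting intervals and the 3-count floor cover counting error only.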

Additional observations from a re-analysis of the deposited data

Results flagged for a closer look

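In 262 groups of 4 libraries, over the named genes and the library measures, 12 held 1 library far from the other 3 by Dixon's criterion. Chance flags about 1 in 20 groups. In ADF replicate 2, Naip1 stood at 31.7 CPM against 8.32 to 11.0 CPM in the other ADF libraries, Il1a at 1.84 CPM against 0.787 to 0.959 CPM, and Spp1 at 2220.3 CPM against 2564 to 2605 CPM. In ADF replicate 3, Vegfa stood at 184 CPM against 159.6 to 161 CPM, and in ADF replicate 4, Cox5a stood at 18.1 CPM against 23.04 to 23.54 CPM. In ENZ replicate 1, Kcne3 stood at 8.50 CPM against 5.59 to 6.06 CPM, Rny3 at 216 CPM against 98.5 to 107 CPM, and mt-Nd6, a mitochondrially encoded subunit of complex I, at 112 CPM against 136 to 141 CPM. In ENZ replicate 2, Nr3c1 stood at 154 CPM against 131 to 135 CPM, and 5.26% of reads were ambiguous between genes against 4.11 to 4.29%. Nckap5 stood at 2.04 CPM in ENZ replicate 3 against 0.872 to 0.984 CPM, and Ltbp1 at 496 CPM in ENZ replicate 4 against 395 to 406 CPM.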

How the results depend on the processing

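Of the 111 named genes that passed, 42 passed in all 8 fits that left out 1 library, 110 passed with DESeq2, 109 with DESeq2 size factors, 111 with limma-voom and with at least 1 CPM in 4 libraries, 95 with no filter, 98 with only the ADF and ENZ libraries, 93 with GC and length trends removed, 90 among coding genes alone and 0 with either covariate. The number of genes changed was 370 to 2388 when 1 library was left out, 4038 with limma-voom, 7 with the no-feature covariate and 0 with the multiple-alignment covariate. Genes higher in ADF numbered 154 to 1194, 2061, 4 and 0 in the same settings and 374 with GC and length trends removed. Genes lower in ADF numbered 216 to 1194, 1977, 3 and 0, and 493 among coding genes alone. Calls shared with the 1535 were 991 with trends removed, 382 without ADF replicate 4 and 367 without ENZ replicate 3. With the no-feature covariate the difference turned direction in Omd (-0.12), Mdh2 (0.00194) and Cebpb (0.0154). With the multiple-alignment covariate it turned in Nckap5 (-0.41), Aldoa (0.0190), Higd1a (0.21), Fkbp4 (0.0313), Ptges3 (0.0233), Sc5d (0.0745), Rps3 (0.57), Rpl15 (0.10), Eef1b2 (0.0412) and Taldo1 (0.18). Both covariates separate ADF from ENZ with no overlap, which leaves little of the contrast to test, and the cause of the turns was not tested. No paired analysis was possible because the labels give no replicate numbers shared between the groups. Genes near the floor of 3 counts per group (0.0534 CPM in ADF, 0.0450 CPM in ENZ) could not be compared at this depth.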
